A study of Arabidopsis thaliana with 10 samples.

Results

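The xyloglucan endotransglucosylase/hydrolase (XTH) genes described here are XTH4 (AT2G06850), XTH15 (AT4G14130), XTH16 (AT3G23730), XTH17 (AT1G65310), XTH18 (AT4G30280), XTH19 (AT4G30290), XTH22 or TCH4 (AT5G57560), XTH23 or XTR6 (AT4G25810), XTH24 (AT4G30270) and XTH25 (AT5G57550). They are 10 of the 33 XTH genes of Arabidopsis thaliana and 10 of the 33602 genes listed. They were chosen by locus identifier, with the levels and fold changes of these same 10 libraries known from earlier results. Which of those values weighed in the choice is not recorded, so all comparisons are treated as used, and the values below are a description that lends no independent support to any direction. All 10 passed the filter on low counts, as did 16 of the 23 other XTH genes, and 7 (XTH1, XTH2, XTH3, XTH13, XTH21, XTH26 and XTH29) did not.

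Xyloglucan is a branched glucan that coats and tethers cellulose in the primary wall of plant cells. XTH enzymes are secreted into the wall, where they cut a xyloglucan chain and join the cut end to another chain or, in some members, to water. The family is known for its part in wall loosening and wall building during growth, and single members respond to touch, light, brassinosteroid and auxin. Norflurazon inhibits phytoene desaturase, an enzyme that makes carotenoids, and light then bleaches the seedlings.

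RNA was sequenced from whole seedlings of 5 days, in 10 libraries of 5 groups with 2 libraries each. The groups were wild type (Col6-3) without treatment and, all on 5 µM norflurazon, wild type (called treated wild type below), the mutant gun1-9 and the MORF2 overexpression lines MORF2OX and MORF2OX(w). GUN1 is a plastid protein of plastid-to-nucleus signalling, MORF2 is a plastid RNA editing factor, and the labels describe the overexpression lines as differing in how strong their phenotype is. Growth was at 22 °C in 24 h light of 100 µmol per square metre per second, and over 100 plants of one genotype were pooled for every library. The labels give neither the lesion of gun1-9 nor the promoter behind the MORF2 transgene, and no untreated libraries of the 3 lines were used here, so what a line does without norflurazon cannot be told apart from what it does on it. Nothing in the labels says that the libraries of one group come from separate cultures, and p-values may thus measure mostly technical spread.

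Total counts ran from 19018594 to 25220815 per library. Levels are given as CPM, read counts relative to the scaled size of their library, with TMM scaling factors of 0.722 to 1.27. The libraries of treated wild type differed most from each other, with a chi-square per degree of freedom of 36.1 against 5.22 to 10.08 in the other groups. MORF2 stood at 102 ± 3.60 CPM (SD, n = 2) in treated wild type, 7608 ± 510.2 in MORF2OX and 4721 ± 412 in MORF2OX(w), and GUN1 at 237 ± 65.4 in treated wild type and 150.5 ± 5.05 in gun1-9. Marker genes of root hairs, guard cells, epidermis and phloem were all detected in every library. The 7 seed storage genes summed to 1.25 and 163 CPM in the libraries of untreated wild type and 5.19 and 24.8 in treated wild type, and to at most 4.65 in the others, so untreated replicate 2 stands apart in these, with replicate 2 of treated wild type next. In bulk seedlings, fewer cells of a type and less RNA per cell cannot be told apart.

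The sequences before the annotated start are shown for 5 of the genes, since they are a neighbouring pair with the closest relative of one of them, and a pair whose upstream sequences share a long run. XTH22 and XTH25 are neighbours on chromosome 5, and XTH23 on chromosome 4 is the closest relative of XTH22 in coding sequence (82.4% identical bases, against 73.0% for XTH25). The 250 bases upstream come from RefSeq (TAIR10.1), read 5′ to 3′ on the strand of the gene, from chr5:23308681-23308930 (minus strand) for XTH22, chr5:23306441-23306690 (minus) for XTH25 and chr4:13128144-13128393 (plus) for XTH23. Capitals mark the letters TTGAC, the core of the W-box bound by WRKY factors, and CGTGTG or CGTGCG, known as the brassinosteroid response element, on either strand.
XTH22: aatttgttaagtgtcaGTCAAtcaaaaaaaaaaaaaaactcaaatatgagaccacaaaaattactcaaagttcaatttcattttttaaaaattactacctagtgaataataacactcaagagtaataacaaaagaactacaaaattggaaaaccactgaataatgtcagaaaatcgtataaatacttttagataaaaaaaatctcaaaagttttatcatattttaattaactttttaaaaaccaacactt
XTH25: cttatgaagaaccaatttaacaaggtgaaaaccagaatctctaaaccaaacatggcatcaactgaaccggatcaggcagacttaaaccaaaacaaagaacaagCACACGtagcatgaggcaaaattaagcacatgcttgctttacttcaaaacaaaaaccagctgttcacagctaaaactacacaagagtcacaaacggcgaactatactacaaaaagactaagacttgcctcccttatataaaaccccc
XTH23: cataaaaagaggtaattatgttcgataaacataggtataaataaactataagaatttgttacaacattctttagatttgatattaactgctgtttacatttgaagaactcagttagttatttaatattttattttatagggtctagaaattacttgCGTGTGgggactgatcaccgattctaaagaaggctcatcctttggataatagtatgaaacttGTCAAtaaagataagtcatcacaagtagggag
XTH17 on chromosome 1 and XTH18 on chromosome 4 are 92.2% identical in coding sequence, and the 73 bases directly before their annotated starts are the same in every position. No other pair of the 10 genes shared more than 2 bases there. The windows are chr1:24256804-24257053 (plus strand) for XTH17 and chr4:14827212-14827461 (minus) for XTH18, with the shared run in capitals.
XTH17: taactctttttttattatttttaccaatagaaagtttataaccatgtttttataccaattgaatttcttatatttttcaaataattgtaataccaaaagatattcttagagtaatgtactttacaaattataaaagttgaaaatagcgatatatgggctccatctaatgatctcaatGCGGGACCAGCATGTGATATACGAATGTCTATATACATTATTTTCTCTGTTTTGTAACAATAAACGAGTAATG
XTH18: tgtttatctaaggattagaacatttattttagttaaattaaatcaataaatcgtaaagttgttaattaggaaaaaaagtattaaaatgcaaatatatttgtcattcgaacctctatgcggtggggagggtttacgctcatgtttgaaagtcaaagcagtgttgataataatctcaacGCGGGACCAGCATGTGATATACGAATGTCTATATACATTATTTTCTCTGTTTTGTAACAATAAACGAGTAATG

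All 10 genes passed the test in treated wild type against untreated wild type, 8 higher and 2 lower (XTH16 and XTH17). edgeR's quasi-likelihood F test was used, its p-values were adjusted by Benjamini-Hochberg over 20628 genes, and a gene passed at an adjusted p under 0.05. In this comparison 65% of all genes tested passed, 30.5% higher and 34.5% lower. Against treated wild type, 1 of the 10 was higher and 3 were lower in gun1-9, where 43.8% of all genes passed (22.9% higher and 20.9% lower). In MORF2OX 5 were higher and none lower, where 33.4% of all genes passed (19.3% higher and 14.1% lower). In MORF2OX(w) 2 were higher and 1 lower, where 12.9% passed (8.36% higher and 4.53% lower). Against gun1-9, MORF2OX had 8 of the 10 higher and 1 lower, with 35.2% of all genes past the test (17.1% higher and 18.1% lower). Against MORF2OX(w) it had 1 higher, with 1.81% of all genes past the test (1.5% higher and 0.315% lower). The libraries of the groups compared did not overlap for 9 of the 10 genes under norflurazon (78.9% of all genes), 7 in gun1-9 (68.8%), 7 in MORF2OX (64.4%), 8 in MORF2OX(w) (55.5%), 9 in MORF2OX against gun1-9 (74.5%) and 5 in MORF2OX against MORF2OX(w) (51.9%).

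The median log2 fold change of the 10 genes was 2.42 for norflurazon in wild type, -0.21 for gun1-9, 0.50 for MORF2OX, 0.33 for MORF2OX(w), 0.82 for MORF2OX against gun1-9 and 0.20 for MORF2OX against MORF2OX(w). Over all genes tested these medians lay between -0.04 and 0.02. The 3 lines were set against the same libraries of treated wild type, which also serve as the treated side of the first comparison. Scaling by upper-quartile factors shifted the median gene by 0.18 on the log2 scale for norflurazon in wild type, -0.20 for gun1-9, -0.16 for MORF2OX and -0.10 for MORF2OX(w). With it, the share of all passing genes that were higher was 33.1% in place of 52.3% in gun1-9, 35.7% in place of 57.9% in MORF2OX, and 40.6% in place of 64.8% in MORF2OX(w). Of the 10 genes, norflurazon then had 8 higher and 1 lower, gun1-9 had 1 higher and 5 lower, MORF2OX had 2 higher and MORF2OX(w) had 1 lower.

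**Figure D1:**
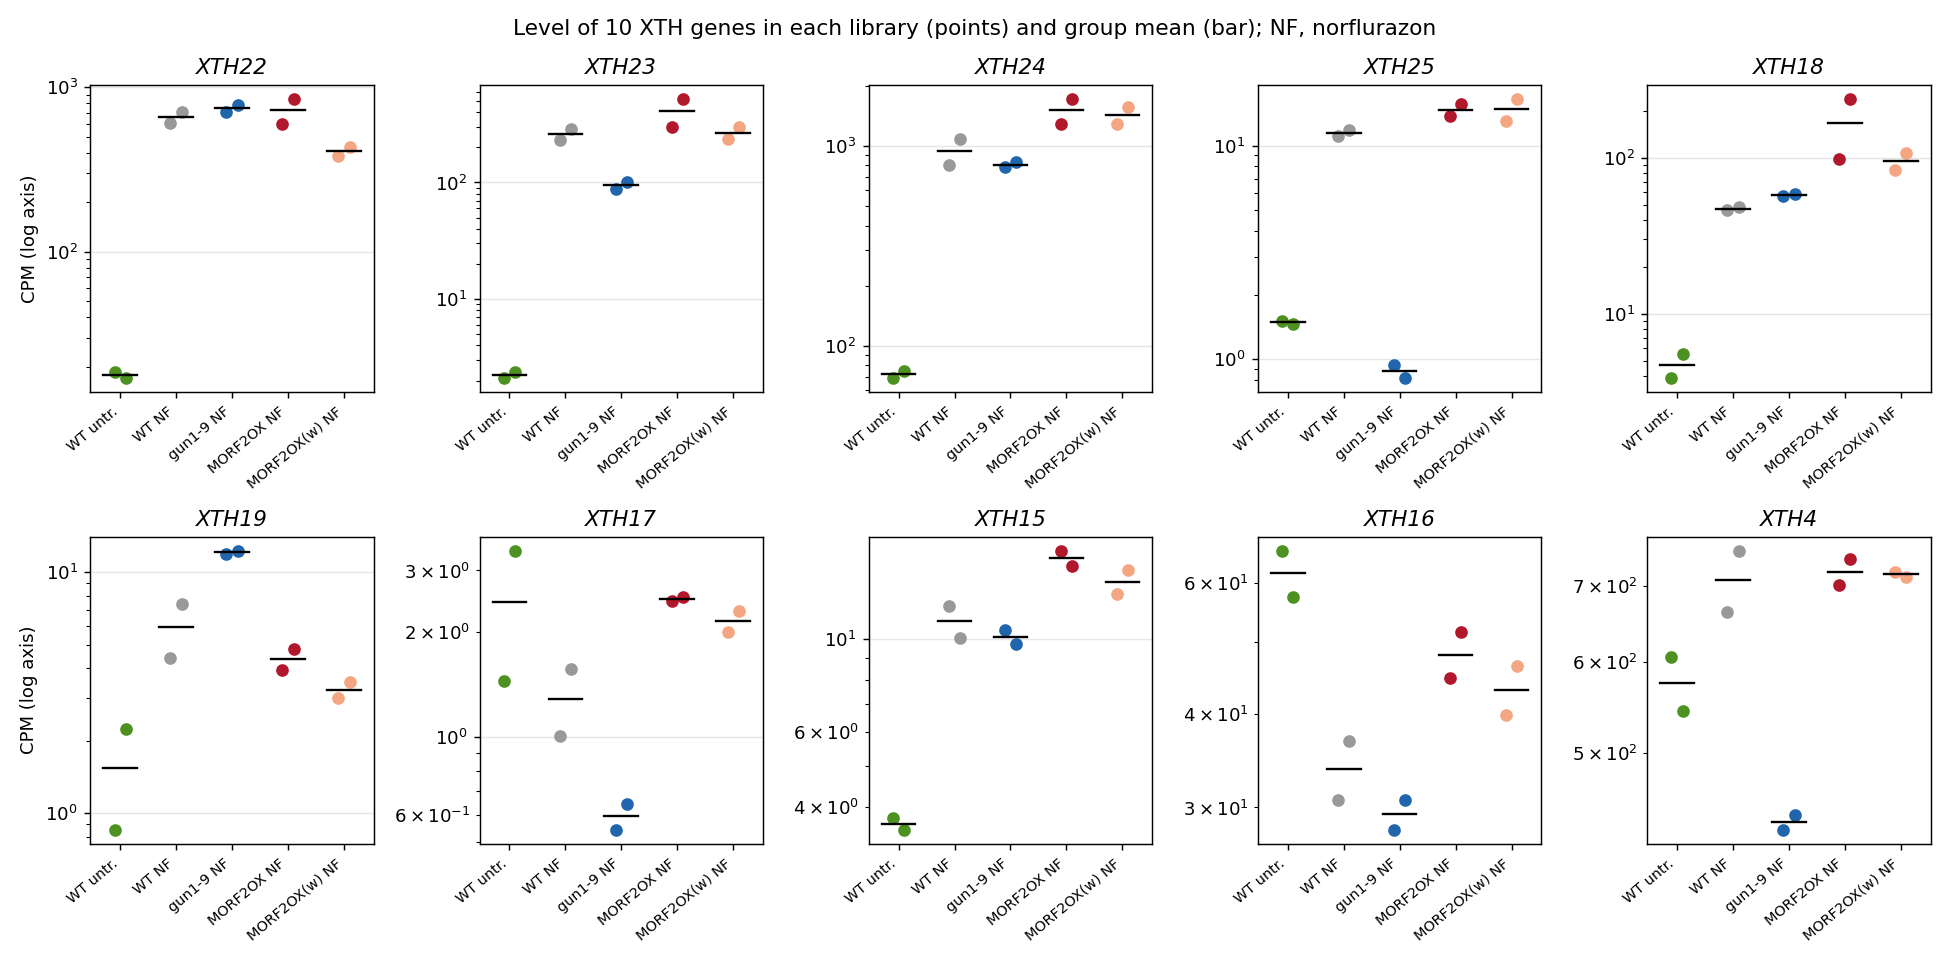
Level of each of the 10 genes (CPM, log axis) in each of the 10 libraries (points) with the group mean (bar); NF, norflurazon, and untr., untreated. XTH22, XTH23 and XTH24 rose from untreated levels of 2.11 to 75.0 CPM to 233 CPM or more in treated wild type, while XTH25 in gun1-9 lay at 0.817 and 0.939 CPM.

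XTH22 is the touch gene TCH4, whose transcript is known to rise after touch, temperature shifts and brassinosteroid. In the untreated libraries its level was 18.6 and 17.2 CPM against 601 and 709 in treated wild type. On norflurazon, gun1-9 had 709 and 783 CPM, MORF2OX 598 and 848 and MORF2OX(w) 382 and 432. Both untreated libraries were far below the other 8, and both MORF2OX(w) libraries lay below those of the other norflurazon groups. Norflurazon changed it in wild type by a log2 value of 5.19 (SE 0.20), a rise of 36.6-fold. In MORF2OX(w) against treated wild type it was -0.69 (SE 0.16) and passed, while the values of 0.19 (SE 0.16) in gun1-9 and 0.14 (SE 0.16) in MORF2OX did not, and their libraries overlapped with those of wild type. MORF2OX exceeded MORF2OX(w) by 0.83 (SE 0.16) on the log2 scale. That call was lost without MORF2OX replicate 2 (0.56), MORF2OX(w) replicate 1 (0.74) or 2 (0.92), either gun1-9 library (0.81 each) or either untreated library (0.81 and 0.80). The call in MORF2OX(w) against wild type was lost without either MORF2OX(w) library (-0.60 and -0.78).

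XTH23 (XTR6), the close relative of XTH22, had the largest fold change of the 10 genes under norflurazon. Untreated wild type had 2.11 and 2.35 CPM, from 32 and 42 counts, and treated wild type 233 and 289. In gun1-9 it stood at 88.7 and 101 CPM, in MORF2OX at 302 and 522 and in MORF2OX(w) at 237 and 298. Both gun1-9 libraries were below all 6 others on norflurazon, and the MORF2OX(w) libraries overlapped with wild type. On the log2 scale, the fold change was 6.86 (SE 0.31) under norflurazon, a rise of 116-fold, and -1.46 (SE 0.22) in gun1-9, a level 2.76-fold lower than in wild type. MORF2OX exceeded gun1-9 by 2.12 (SE 0.22). MORF2OX was also higher than wild type, by 0.66 (SE 0.22), but the replicates of MORF2OX lay far apart. Without its replicate 2 the value was 0.22 (adjusted p = 0.463 by edgeR) and without its replicate 1 it was 1.00. The call was also lost without wild type norflurazon replicate 1 (0.51), either gun1-9 library (0.62 each) or either untreated library (0.61 each). In MORF2OX(w) the value of 0.04 (SE 0.22) did not pass.

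XTH24, known as MERI5B from the shoot meristem, was the most abundant of the 10 on norflurazon, also per coding length. In the untreated libraries its level was 69.1 and 75.0 CPM against 799.9 and 1086 in treated wild type. The mutant had 781 and 829.8 CPM, MORF2OX 1292 and 1722 and MORF2OX(w) 1295 and 1571. Both overexpression lines were above every library of wild type and gun1-9, and gun1-9 overlapped with wild type. The log2 difference was 3.71 (SE 0.20) under norflurazon (13.1-fold), 0.68 (SE 0.18) in MORF2OX and 0.60 (SE 0.18) in MORF2OX(w), and these 3 passed, while -0.23 (SE 0.18) in gun1-9 did not. MORF2OX exceeded gun1-9 by 0.90 (SE 0.18). The MORF2OX call was lost without MORF2OX replicate 2 (0.46) and with only the 2 groups compared in the fit. The MORF2OX(w) call was lost without MORF2OX(w) replicate 1 (0.74) or 2 (0.46), wild type norflurazon replicate 1 (0.40), either gun1-9 library (0.59 each) or either untreated library (0.58 each).

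XTH25 (also called XTR3) showed the largest difference between gun1-9 and the other norflurazon groups. Untreated wild type had 1.52 and 1.46 CPM and treated wild type 11.1 and 11.8. It was at 0.939 and 0.817 CPM in gun1-9, from 19 counts in each library, while MORF2OX had 13.8 and 15.6 and MORF2OX(w) 13.1 and 16.6. The gun1-9 libraries were the lowest of all 10, below those of untreated wild type, and both overexpression lines lay above wild type. The log2 fold change was 2.94 (SE 0.20) under norflurazon and -3.70 (SE 0.21) in gun1-9, a level 13.0-fold lower than in treated wild type. MORF2OX exceeded gun1-9 by 4.06 (SE 0.20), or 16.7-fold. The values of 0.36 (SE 0.15) in MORF2OX and 0.37 (SE 0.15) in MORF2OX(w) did not pass.

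XTH22 and XTH25, with these different values in gun1-9, lie next to each other. XTH25 (chr5:23304782-23306440) and XTH22 (chr5:23307006-23308680) are both on the minus strand, with 565 bases between the end of XTH22 and the start of XTH25. The annotation puts no other gene over their upstream windows. XTH13 (686 bases beyond XTH25) was not tested, and XTH12 beyond it was below 1 CPM in treated wild type (0.781 ± 0.198). On chromosome 4, XTH23 (chr4:13128394-13129927, plus strand) lies 363 bases from XTH14, which rose under norflurazon by 2.37 (SE 0.27) and did not pass in gun1-9 (-0.52 (SE 0.22)). XTH24, XTH18 and XTH19 are consecutive family members on the minus strand of chromosome 4, with gaps of 5161 and 1500 bases. Whether 2 neighbours differed from each other in their response was not tested.

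**Figure D2:**
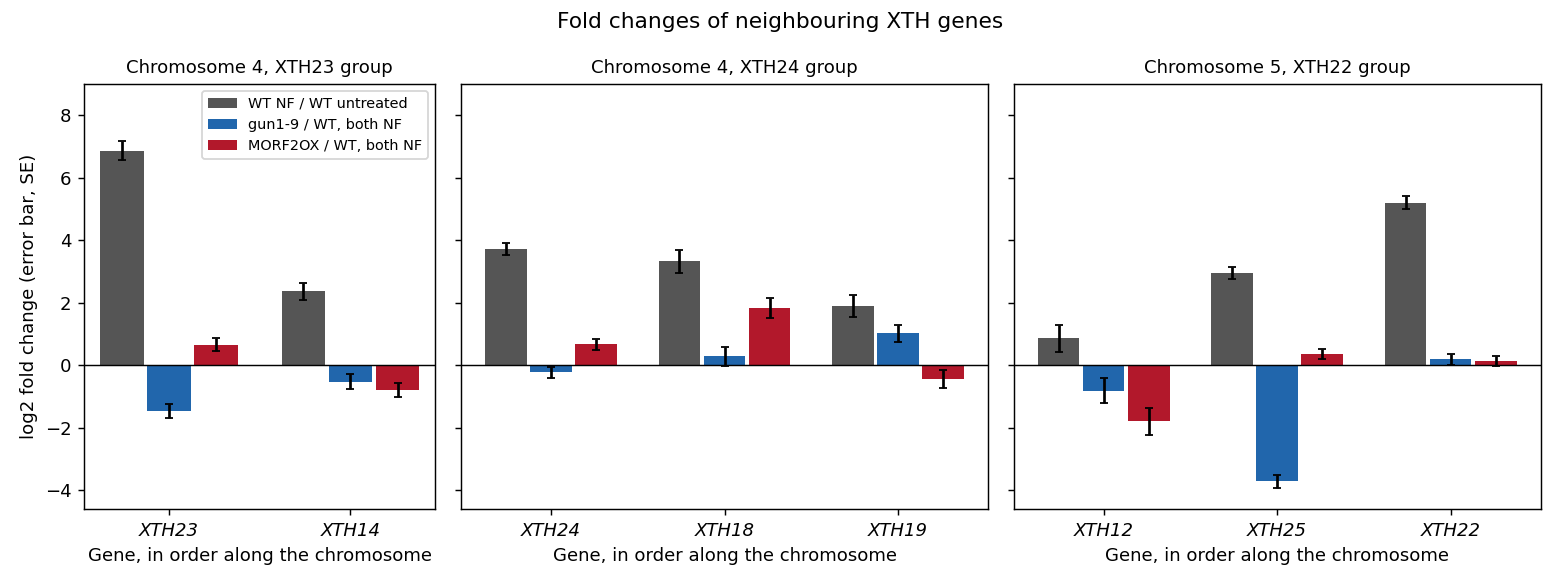
Log2 fold changes (bars, error bar SE) of the tested genes in 3 runs of neighbouring XTH genes, in order along each chromosome; NF, norflurazon. XTH13, between XTH12 and XTH25, was not tested and is left out. XTH25 was lower by 3.70 in gun1-9 than in treated wild type, while XTH22 beside it was at 0.19 and did not pass.

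XTH17, XTH18 and XTH19 are close relatives known mostly from roots, where their promoters are active in growing cells. XTH18 rose most of them under norflurazon. In the untreated libraries its level was 3.89 and 5.49 CPM against 46.4 and 48.2 in treated wild type. On norflurazon, gun1-9 had 56.9 and 58.5 CPM, MORF2OX 97.9 and 239 and MORF2OX(w) 83.3 and 108. Every library of the overexpression lines was above every other library, and the MORF2OX libraries lay so far apart that they enclosed one of MORF2OX(w). On the log2 scale, the fold change was 3.32 (SE 0.37) under norflurazon, 1.83 (SE 0.31) in MORF2OX, 1.01 (SE 0.30) in MORF2OX(w) and 1.54 (SE 0.30) in MORF2OX against gun1-9, all of which passed, while 0.29 (SE 0.30) in gun1-9 did not. Without MORF2OX replicate 2 the value was 1.05 against wild type and 0.76 against gun1-9, and both passed. The MORF2OX(w) call was lost without MORF2OX(w) replicate 1 (1.19) or 2 (0.82), wild type norflurazon replicate 1 (0.99), or either gun1-9 or untreated library (0.99 to 1.00).

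XTH19 was highest in gun1-9. Untreated wild type had 0.856 and 2.24 CPM, treated wild type 4.40 and 7.41 and gun1-9 11.9 and 12.3. In MORF2OX it was at 3.93 and 4.81 CPM and in MORF2OX(w) at 3.01 and 3.50. Both gun1-9 libraries were above all the others, and those of MORF2OX overlapped with treated wild type. The log2 difference was 1.90 (SE 0.35) under norflurazon, 1.02 (SE 0.27) in gun1-9 and -1.47 (SE 0.28) in MORF2OX against gun1-9, and these passed, while -0.44 (SE 0.29) in MORF2OX and -0.87 (SE 0.30) in MORF2OX(w) did not. Without gun1-9 replicate 1 (1.02, edgeR adjusted p = 0.0533) or replicate 2 (0.96, adjusted p = 0.0707) the value for gun1-9 no longer passed.

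XTH17, whose coding and upstream sequences resemble XTH18, was rare throughout. Untreated wild type had 1.45 and 3.42 CPM and treated wild type 1.00 and 1.57, from 22 to 61 counts per library, and these groups overlapped. The mutant had 0.544 and 0.645 CPM, MORF2OX 2.46 and 2.52 and MORF2OX(w) 1.99 and 2.302. The gun1-9 libraries, with 11 and 15 counts, were the lowest. Its log2 fold change of -0.93 (SE 0.36) under norflurazon passed but came to -0.07 without untreated replicate 2 (edgeR adjusted p = 0.904), the library with the highest seed storage sum. It was -0.65 without wild type norflurazon replicate 1, and the call was also lost without any 1 of the gun1-9, MORF2OX or MORF2OX(w) libraries (-0.93 to -0.83). MORF2OX exceeded gun1-9 by 2.05 (SE 0.41). The values of -1.11 (SE 0.44) in gun1-9, 0.94 (SE 0.35) in MORF2OX and 0.72 (SE 0.36) in MORF2OX(w) did not pass. XTH18 has 19 of 1214 and XTH19 21 of 1286 windows of 50 bases in their exons that also occur in the other or in XTH17, and XTH17 has 2 of 1169. These exact matches cover a small stretch of each gene. They take no account of read length or of mismatches, so how many reads the copies shared was not tested.

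XTH15 (XTR7) and XTH16 are close relatives (81.7% identical in coding sequence), and XTH15 is known to rise in shade. XTH15 had 3.75 and 3.53 CPM in the untreated libraries and 11.97 and 10.05 in treated wild type. On norflurazon, gun1-9 had 10.5 and 9.71 CPM, MORF2OX 16.1 and 14.8 and MORF2OX(w) 12.7 and 14.5. XTH16 went down under norflurazon, from 66.3 and 57.5 CPM to 30.7 and 36.8 in wild type. The mutant had 28.0 and 30.7 CPM, MORF2OX 44.7 and 51.5 and MORF2OX(w) 39.9 and 46.4, and the untreated libraries were above all others. XTH15 rose under norflurazon by 1.59 (SE 0.16) on the log2 scale while XTH16 had -0.87 (SE 0.14). In MORF2OX both passed as higher, by 0.49 (SE 0.14) and 0.51 (SE 0.13), and in gun1-9 neither did, at -0.12 (SE 0.14) and -0.20 (SE 0.14). The MORF2OX calls were lost for XTH15 without MORF2OX replicate 1 (0.43) and for XTH16 without replicate 2 (0.41). Both were also lost with only the 2 groups compared in the fit. Each was lost in 3 of 16 alternative settings, with values of 0.34 to 0.62 for XTH15 and 0.35 to 0.65 for XTH16. Against gun1-9, MORF2OX was higher by 0.62 (SE 0.14) for XTH15 and 0.71 (SE 0.14) for XTH16, the former lost without gun1-9 replicate 2 (0.57). In MORF2OX(w) the values of 0.31 (SE 0.14) and 0.35 (SE 0.14) did not pass. XTH15 overlaps AT4G14120 on the opposite strand, and 28.8% of its 50-base windows also lie in that gene, so its counts are uncertain where the counting did not use strand. AT4G14120 itself had 40 counts or fewer in every library.

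XTH4, an abundant gene of growing shoot tissue, changed least under norflurazon. In the untreated libraries its level was 607 and 544 CPM against 664 and 751 in treated wild type. On norflurazon, gun1-9 had 429 and 441 CPM, MORF2OX 700.4 and 739 and MORF2OX(w) 719.9 and 712. Both gun1-9 libraries were below all the others, and the overexpression lines overlapped with treated wild type. The log2 fold change was -0.70 (SE 0.12) in gun1-9 and 0.73 (SE 0.12) in MORF2OX against gun1-9, both of which passed. The value of 0.30 (SE 0.12) under norflurazon passed, but was 0.21 and lost without wild type norflurazon replicate 2, and was lost without untreated replicate 2 (0.31) or any 1 library of the overexpression lines (0.30 each). It was at 0.02 (SE 0.12) in MORF2OX and 0.02 (SE 0.12) in MORF2OX(w).

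To compare levels between genes, CPM was divided by coding length in kilobases. In untreated wild type XTH4 ranked first of the 33 family genes at 646 ± 49.5 CPM per kb (SD, n = 2), with XTH7 next at 572 ± 75.9, within the spread, and XTH24 ranked 7th at 88.9 ± 5.11. Per kb of exon length the order of XTH4 and XTH7 turned, with XTH7 first and XTH4 at rank 2. In all 4 groups on norflurazon XTH24 ranked first, at 1164 ± 249.8 in wild type, 994 ± 42.8 in gun1-9, 1859.9 ± 375 in MORF2OX and 1769 ± 241 in MORF2OX(w). XTH22 went from rank 12 at 20.9 ± 1.23 to rank 3 at 766 ± 89.0 in wild type, and ranked 2 in gun1-9 and MORF2OX and 3 in MORF2OX(w). XTH23 went from rank 18 to rank 4 in wild type and ranked 6 in gun1-9. XTH25 ranked 23 in untreated wild type, 16 in treated wild type and 23 in gun1-9. On norflurazon, neighbours in this order were often within their spread, as with XTH22 at 766 ± 89.0 and XTH4 at 794 ± 69.3 in wild type.

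The family as a whole was at 2413 and 2116 CPM per kb of coding length in untreated wild type and 3644 and 4375 in treated wild type, and its makeup shifted towards XTH22, XTH23 and XTH24. The share of XTH24 in the family was 3.54% and 4.37% in the untreated libraries and 27.1% and 30.6% in treated wild type. It was 34.4% and 36.3% in MORF2OX, 37.4% and 40.8% in MORF2OX(w) and 29.8% and 29.7% in gun1-9, higher in both overexpression lines than in every wild type and gun1-9 library. The share of XTH22 was 0.903% and 0.948% untreated and 19.3% and 18.9% in treated wild type, 15.1% and 16.9% in MORF2OX, 10.4% and 10.6% in MORF2OX(w) and 25.6% and 26.6% in gun1-9. XTH4 held 28.2% and 28.9% untreated and 20.4% and 19.3% in treated wild type.

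**Figure D3:**
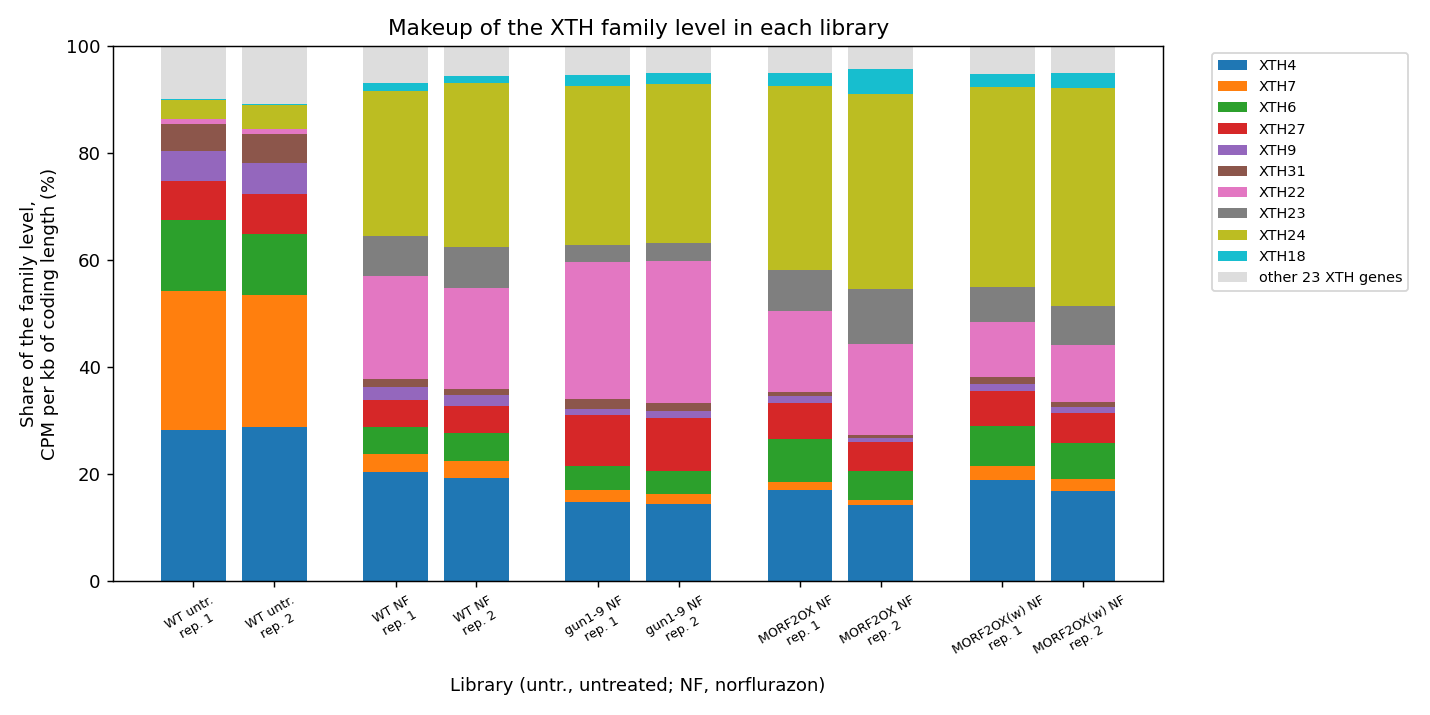
Share of the family level (percent of summed CPM per kb of coding length) in each of the 10 libraries (bars); untr., untreated, and NF, norflurazon. The genes drawn singly are XTH4, XTH6, XTH7, XTH9, XTH18, XTH22, XTH23, XTH24, XTH27 and XTH31, and are not the 10 listed genes as a set. The other 23 are drawn together and hold the listed XTH15, XTH16, XTH17, XTH19 and XTH25. XTH4 and XTH7 fill over 50% of the untreated bars and XTH22, XTH23 and XTH24 over 50% of every bar on norflurazon.

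Across the whole family, 26 genes were tested. Under norflurazon 12 were higher and 10 lower (median log2 fold change 0.39), in gun1-9 2 were higher and 11 lower (median -0.50), and in MORF2OX 8 were higher and 8 lower (median 0.02). In MORF2OX(w) 4 were higher and 3 lower, and in MORF2OX against gun1-9 13 were higher and 3 lower. Over all genes the shares higher and lower were 30.5% and 34.5% under norflurazon, 22.9% and 20.9% in gun1-9, and 19.3% and 14.1% in MORF2OX. They were 8.36% and 4.53% in MORF2OX(w) and 17.1% and 18.1% in MORF2OX against gun1-9. The family counts hold the 10 listed genes, and the 16 others are what that choice left over. With upper-quartile factors norflurazon had 15 higher and 8 lower, gun1-9 had 2 higher and 15 lower, MORF2OX 4 higher and 9 lower, and MORF2OX(w) 1 higher and 5 lower. The 16 others had 4 higher and 8 lower under norflurazon, while gun1-9 had 1 higher and 8 lower, MORF2OX 3 higher and 8 lower, and MORF2OX(w) 2 of each.

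**Figure D4:**
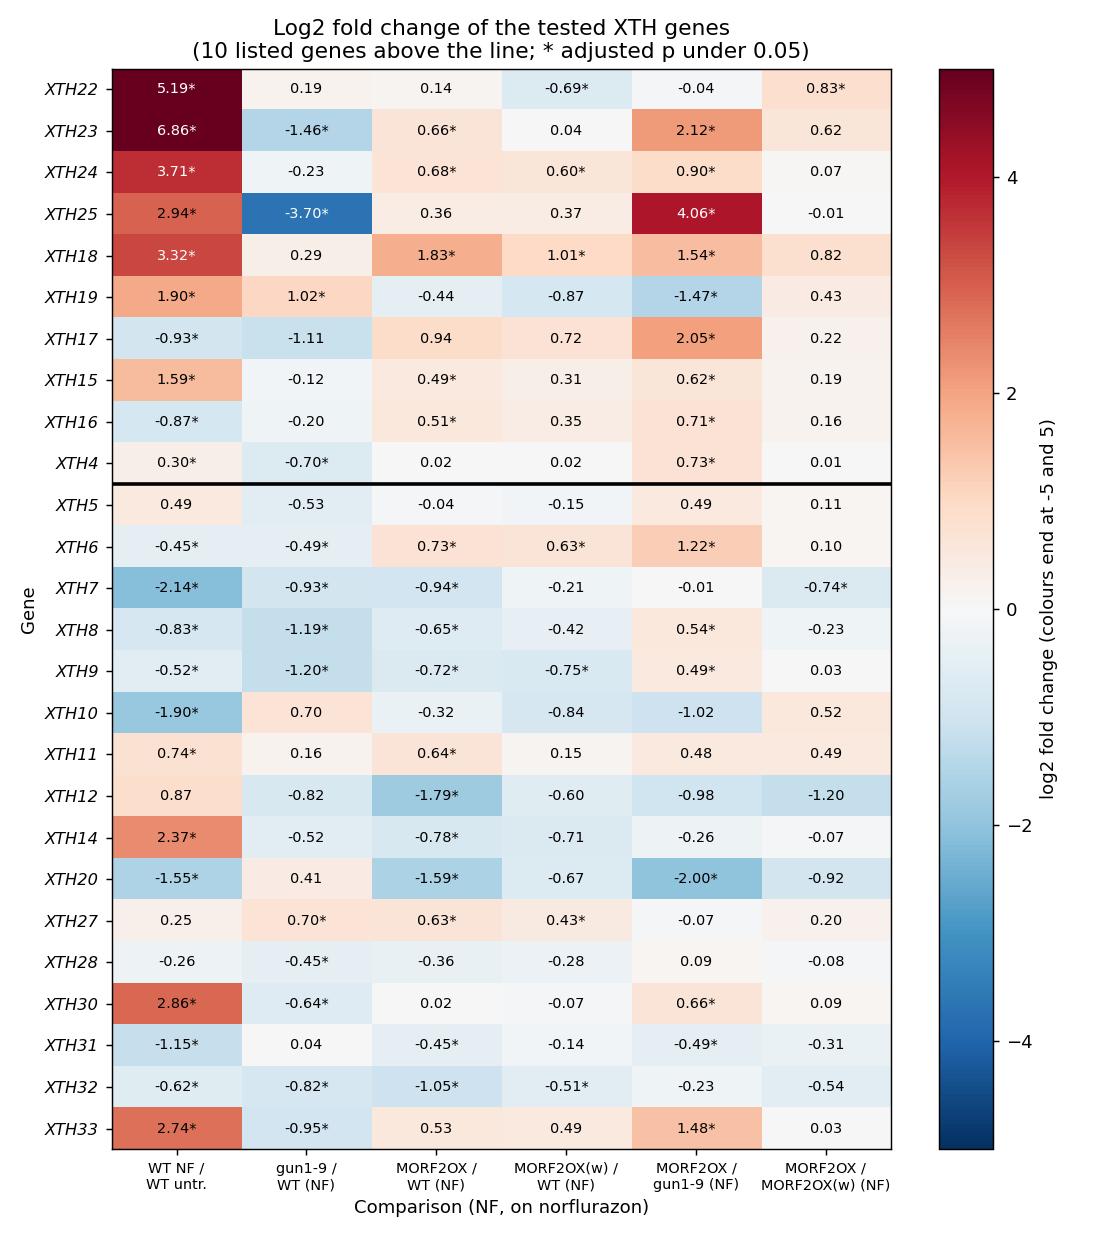
Log2 fold change (colour and printed value, colours ending at -5 and 5) of the 26 tested XTH genes in 6 comparisons, the 10 listed genes above the line. An asterisk marks an adjusted p under 0.05; NF, norflurazon, and untr., untreated. Under norflurazon the highest values are XTH23 (6.86) and XTH22 (5.19), and in gun1-9 the lowest is XTH25 (-3.70).

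Among those others, XTH30 rose under norflurazon from 7.48 to 54.1 CPM on average (2.86 (SE 0.13), edgeR adjusted p = 5.67e-09), and XTH14 from 1.68 to 8.85. XTH7 fell, with means of 505 to 115 CPM (log2 -2.14 (SE 0.13), edgeR adjusted p = 4.38e-08). XTH31, for which hydrolase activity is known, fell from 103 to 46.5 CPM, and XTH8 from 30.2 to 16.9. In gun1-9 XTH27 was the 1 that was higher, at 0.70 (SE 0.13), while XTH9 (-1.20 (SE 0.12)), XTH8 (-1.19 (SE 0.15)) and XTH7 (-0.93 (SE 0.13)) were lower. In MORF2OX, XTH6 (0.73 (SE 0.15)) and XTH27 (0.63 (SE 0.13)) were higher, and XTH32 (-1.05 (SE 0.13)), XTH7 (-0.94 (SE 0.13)) and XTH14 (-0.78 (SE 0.23)) were lower. In MORF2OX(w), XTH6 (0.63 (SE 0.15)) and XTH27 (0.43 (SE 0.13)) were higher, and XTH9 (-0.75 (SE 0.12)) and XTH32 (-0.51 (SE 0.13)) lower. Against gun1-9, MORF2OX was higher for XTH33 (1.48 (SE 0.28)), XTH6 (1.22 (SE 0.16)) and XTH30 (0.66 (SE 0.12)) and lower for XTH31 (-0.49 (SE 0.12)). Against MORF2OX(w) it was lower for XTH7 (-0.74 (SE 0.13)).

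Genes that make and trim the substrate of the XTH enzymes were also tested. Of 14 genes for the xyloglucan backbone and side chains, 3 were higher and 7 lower under norflurazon (30.5% and 34.5% of all genes), among them the galactosyltransferase gene XLT2 (-2.42 (SE 0.18), edgeR adjusted p = 2.37e-07), the acetyltransferase gene AXY4 (-1.52 (SE 0.14)), the glucan synthase gene CSLC8 (-1.48 (SE 0.25)) and, rising, the xylosyltransferase gene XXT1 (1.44 (SE 0.23)). In MORF2OX 2 of these were higher, with XXT1 at 0.94 (SE 0.22), and 3 lower (19.3% and 14.1% of all genes). In gun1-9 1 was higher and 3 lower (22.9% and 20.9% of all genes). In MORF2OX(w) none of the 14 passed, where 12.9% of all genes passed. Of 3 trimming enzymes, 1 was lower and 1 higher under norflurazon, 2 were lower and 1 higher in gun1-9, and MORF2OX had 1 higher and 1 lower. The same shares of all genes apply to these 3. The xylosidase gene XYL1 fell under norflurazon (-1.11 (SE 0.14)) and was lower again in gun1-9 (-1.18 (SE 0.14)), while the galactosidase gene BGAL10 was higher under norflurazon (0.41 (SE 0.13)) and lower in gun1-9 (-1.03 (SE 0.13)) and MORF2OX (-0.51 (SE 0.13)). The fucosidase gene AXY8 was higher in gun1-9 (0.40 (SE 0.15)) and MORF2OX (0.56 (SE 0.15)). Of 8 cellulose synthase genes, 5 were lower and none higher under norflurazon (34.5% and 30.5% of all genes). Their summed level overlapped, at 1542 and 1344 CPM untreated and 837 and 1432 in treated wild type. CESA8 (-2.02 (SE 0.27)) and CESA4 (-1.27 (SE 0.15)) of the secondary wall and CESA5 (-1.44 (SE 0.21)) were among the lower.

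Most other touch genes, the class that TCH4 is named for, also rose under norflurazon. Of 7 tested, 6 passed as higher and none as lower, against 30.5% of all genes higher and 34.5% lower. The median log2 fold change was 1.97, and those higher include the zinc finger gene ZAT12 (4.60 (SE 0.29)), WRKY40 (3.39 (SE 0.23)) and the calmodulin-like genes CML23 (2.301 (SE 0.27)) and TCH3 (1.97 (SE 0.23)). TCH3 libraries held 42.6 and 33.8 CPM untreated, 139 and 159.8 in treated wild type and 482 and 832 in MORF2OX, where it was higher than in wild type by 2.14 (SE 0.22) (edgeR adjusted p = 3.73e-05) while XTH22 did not pass. In gun1-9 5 touch genes were higher and CML23 was lower (-0.87 (SE 0.23)), with ZAT12 at 1.32 (SE 0.19), where 22.9% of all genes were higher. With upper-quartile factors that count was 2 higher and 1 lower. In MORF2OX 3 were higher and none lower, where 19.3% of all genes were higher. In MORF2OX(w) 1 was higher and 2 lower (8.36% and 4.53% of all genes).

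Of 10 brassinosteroid signalling and response genes tested, 3 were higher and 4 lower under norflurazon, near the share over all genes (30.5% and 34.5%), with EXO (3.49 (SE 0.22)) and BEE1 (2.02 (SE 0.17)) rising and the transcription factor gene BES1 (-1.87 (SE 0.13)) falling. In gun1-9 2 were higher and 3 lower (22.9% and 20.9% of all genes), BES1 (-1.14 (SE 0.13)) and BEE1 (-1.32 (SE 0.16)) among the latter. Between MORF2OX and gun1-9, 6 of the 10 were higher in MORF2OX and none lower (17.1% and 18.1% of all genes), with BES1 at 1.20 (SE 0.13) (edgeR adjusted p = 4.1e-05). Against treated wild type, MORF2OX(w) had 2 of the 10 higher and 1 lower (8.36% and 4.53% of all genes). The median log2 fold change there was 0.27. EXO was the 1 that was lower (-1.16 (SE 0.20)), and XTH22 was lower there too. Of 6 synthesis genes, 2 were higher and 3 lower under norflurazon (30.5% and 34.5% of all genes). In MORF2OX and in MORF2OX(w) 1 of the 6 was higher than in treated wild type and none lower. Of all genes, 19.3% and 8.36% were higher in these lines. The 1 gene was CPD in both, at 0.76 (SE 0.11) in MORF2OX and 0.63 (SE 0.11) in MORF2OX(w).

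Markers of cell types were also compared, against 30.5% of all genes higher and 34.5% lower under norflurazon. The summed level of 5 root hair markers was 2.11 and 5.21 CPM untreated and 19.4 and 25.98 in treated wild type, with 5 of 5 past the test as higher. The sum in gun1-9 was 14.8 and 15.3 CPM, that in MORF2OX 17.3 and 11.98 and that in MORF2OX(w) 15.4 and 14.2. The 3 epidermis markers summed to 752 and 669 CPM untreated and 199.7 and 286 in treated wild type, with 3 of 3 lower, and to 200.1 and 161 in MORF2OX, 216 and 199 in MORF2OX(w) and 146 and 149 in gun1-9. The 4 guard cell markers went from 93.7 and 87.6 to 49.4 and 46.9 CPM, 4 of 4 lower. The 4 root inner tissue markers were at 96.0 and 91.1 CPM untreated and 67.7 and 78.6 in treated wild type. In the mutant gun1-9 they were at 159.8 and 138, and SCR was higher (1 of 4, with 22.9% of all genes higher). Under norflurazon in wild type 2 of these 4 were higher, CASP1 (2.70 (SE 0.26)) and MYB36 (3.85 (SE 0.37)), and SCR was lower (-0.85 (SE 0.13)), with a median log2 fold change of 1.21 although the sum went down. The 3 xylem markers summed to 76.9 and 63.2 CPM untreated and 20.7 and 17.0 in treated wild type, 2 of 3 lower. They summed to 6.86 and 5.97 in MORF2OX, 10.8 and 8.93 in MORF2OX(w) and 6.87 and 7.44 in gun1-9. In each line 2 of 3 were lower than in treated wild type. Of all genes, 14.1% were lower in MORF2OX, 4.53% in MORF2OX(w) and 20.9% in gun1-9. The 3 phloem markers went from 346 and 275 to 153 and 150.01 CPM under norflurazon, 2 of 3 lower. Of 6 seed storage genes tested, 3 were lower under norflurazon. The summed level of the 7 listed overlapped, at 1.25 and 163 CPM untreated and 5.19 and 24.8 in treated wild type. Untreated replicate 1 was thus below both treated libraries. The part of these cell types in the XTH values was not tested.

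The 10 genes differed in pattern. Over the 10 libraries of 5 groups, Pearson correlations of log2 CPM for the 45 pairs ranged from -0.854 (XTH16 and XTH19) to 0.989 (XTH23 and XTH24), with 11 over 0.9 and 14 below 0. These share libraries and groups and are given as a description. Outside the family, the genes most alike in pattern among 12067 candidates were AT2G27080, PHI-1 and CMPG1 for XTH22, WRKY18, EXLA1 and PIRL5 for XTH23, ALDH6B2, EXL4 and AT4G13030 for XTH24, and AT2G34300, GC5 and AT1G76520 for XTH25. They were UMAMIT33, LRB1 and NET3A for XTH15, JAZ6, AT4G01210 and PERK15 for XTH16, and LETM2, AT5G10190 and AT3G11830 for XTH17. They were FRB1, AT2G18690 and PAPP2C for XTH18, DOX1, AT5G35560 and SYTD for XTH19, and AST91, AT3G61210 and AT4G30910 for XTH4. The correlations lay between 0.948 and 0.998.

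Motifs were searched in the upstream windows on both strands. TTGAC occurred in 5 of the 10 windows (XTH15, XTH18, XTH19, XTH22 and XTH23) and in 44.9% of all 27437 promoter windows of the same length. CGTGCG or CGTGTG occurred in 2 of the 10 (XTH23 and XTH25) and in 6.71% of all windows. TATAAA occurred in 5 of the 10 and in 47.4% of all. CACGTG, the G-box, occurred in none of the 10 and in 6.49% of all, and GAANNTTC, the heat shock element, in none and in 9.55%. XTH23 and XTH25 hold the brassinosteroid element at 94 to 89 and 147 to 142 bases before the start, while XTH4 and XTH22 do not. XTH23, XTH25 and XTH4 were all lower in gun1-9 than in treated wild type. Of the 8 other family genes lower there, XTH8 alone holds the element, and XTH7 and XTH9 are among those that do not. The element occurred in 4 of the 33 family windows. XTH2, which did not pass the filter on low counts, holds it too. Whether the element bears on these values was not tested. A match, or none, describes the letters of these windows only.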

How the data were processed

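The authors deposited raw counts of reads per gene, 1 file per library. HTSeq 0.6.1, edgeR, TopHat2 2.1.1 and Bowtie2 2.3.1 are the programs, and TAIR10 the genome, per the submitters' processing notes. The strand setting of the counting is not given in the sources used here. The 10 genes, the gene lists and the alternatives were chosen with earlier results of these data known. In R 4.3.3, glmQLFit and glmQLFTest of edgeR 4.0.16 tested the counts in 1 fit of 5 group means with TMM factors and 5 residual degrees of freedom. filterByExpr kept 20628 of 33602 genes. The SE is the log2 fold change divided by the square root of F. Scripts were tested on simulated data. Alternatives were RLE and upper-quartile factors, no filter, DESeq2 1.42.0, the 2 groups alone, a replicate block and leaving out each library.

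All 10 genes were named. Of other XTH genes, those past the threshold with at least 5 CPM were named, up to 3 per direction and comparison, and of each list up to 4 with the largest fold. Likeness used log2 CPM with a prior count of 2, among genes of at least 10 CPM. Of 114 list genes, 113 matched a RefSeq locus (TAIR10.1). The common dispersion was 0.0123.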

Additional observations from a re-analysis of the deposited data

How the results depend on the processing

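Of the 60 fold changes of the 10 genes over 6 comparisons, 32 passed, 20 of them in all 16 alternatives, and 12 were lost in some. None of the 32 changed sign. Most losses named gene by gene above are those from leaving out 1 library. Over all 16 alternatives, XTH23 in MORF2OX was lost in 8, and in MORF2OX(w) XTH22 in 3 and XTH18 and XTH24 in 9 each. Under norflurazon XTH17 was lost in 11 and XTH4 in 8. Of the 28 that did not pass, 11 changed sign and 9 passed in some alternative. Under norflurazon 8 calls held throughout (XTH4 and XTH17 did not), in gun1-9 3 (XTH4, XTH23 and XTH25), in MORF2OX 1 (XTH18), in MORF2OX(w) none, in MORF2OX against gun1-9 8, and in MORF2OX against MORF2OX(w) none. The causes were not tested.

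With only the 2 groups compared in the fit, the count of all genes was 2791 in place of 6886 for MORF2OX, 335 in place of 2659 for MORF2OX(w) and 1286 in place of 374 for MORF2OX against MORF2OX(w), where DESeq2 gave 635 and no filter 870. The family count was then 6 in place of 16 for MORF2OX and 2 in place of 7 for MORF2OX(w), and no filter gave 5 in place of 2 between these lines. The count of the 10 genes was 1 in place of 5 for MORF2OX and 1 in place of 3 for MORF2OX(w), upper-quartile factors gave 2 and 1, and no filter gave 3 in place of 1 between the lines.

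Leaving out 1 library at a time, the count of all genes ran from 3320 to 10050 for MORF2OX, 526 to 7768 for MORF2OX(w), 4145 to 9875 for MORF2OX against gun1-9 and 0 to 1548 for MORF2OX against MORF2OX(w). The family counts ran from 7 to 17, 1 to 10 and 0 to 3 for MORF2OX, MORF2OX(w) and their difference, and those of the 10 genes from 2 to 6, 0 to 4 and 0 to 3. For MORF2OX, the lowest values of 7 and 2 were those without its replicate 2. With 1 library left in a group, it is assumed to vary as the others do.

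With a replicate block, the 10 genes gave 9, 5, 6, 4, 9 and 1 calls for norflurazon, gun1-9, MORF2OX, MORF2OX(w), MORF2OX against gun1-9 and MORF2OX against MORF2OX(w). The numbers are shared by name only: same-numbered deviations correlated by -0.102 to 0.0892 over 10 pairs of groups.

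The fewest counts behind a level of the 10 genes were 11 (XTH17 in gun1-9). Dividing by exon length in place of coding length moved 33 of the 50 family shares by more than 1 SD.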
